A study of Homo sapiens with 9 samples.

Results

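NF-κB is a family of transcription factors held inactive in the cytoplasm until a signal frees them, and the 10 genes described here are regulators of that pathway and inflammatory genes it is known to switch on. They were listed by name: the subunit genes NFKB1, NFKB2 and RELB, the inhibitor genes NFKBIA, NFKBIE and TNFAIP3, and the target genes TNF, PTGS2, BIRC3 and IER3. A gene was measured where the annotation of the arrays gave it a named probe set, and where several were named the brightest on average was taken. Of the 10 listed genes 6 were measured, namely NFKB1, NFKB2, RELB, TNF, PTGS2 and IER3, among 14778 named genes in all. NFKBIA, NFKBIE, TNFAIP3 and BIRC3 were not analysed here, which leaves the inhibitor genes of the list without a value.

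The cells were HL-60 clone 15, a human cell line from promyelocytic leukaemia and a model for precursors of eosinophils, and total RNA was measured on Affymetrix whole-transcript arrays. There were 3 groups of 3 arrays, called biological replicates by the design text. The first carried a lentiviral construct for RhoH and received 100 nM 4-hydroxytamoxifen (4-OHT), a ligand of the oestrogen receptor that switches the construct on (induced RhoH). The second carried the same construct without 4-OHT (uninduced RhoH), and the third carried a GFP construct with 100 nM 4-OHT (GFP). RhoH is a GTP-binding protein of blood cells, and the study asked which genes it changes. All cells were transduced with a lentivirus. No GFP cells without 4-OHT were analysed here. An effect of the drug itself cannot be told apart from induction in RhoH cells. Against GFP, the construct, leak without 4-OHT and any other difference between the transduced populations cannot be told apart. Uninduced RhoH minus GFP also sets cells without 4-OHT against cells with it, so the drug cannot be told apart there either. The labels do not say whether a transduced population was 1 clone or a pool.

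The arrays were checked before the members were read. RHOH had log2 signals of 5.60, 5.73 and 5.45 on the arrays labelled induced RhoH, 5.23, 5.25 and 5.15 on those labelled uninduced RhoH, and 5.90, 5.94 and 5.94 on those labelled GFP. By limma RHOH differed by 0.38 between induced and uninduced RhoH (adjusted p = 0.0451), by -0.33 between induced RhoH and GFP (adjusted p = 0.0717) and by -0.72 between uninduced RhoH and GFP (adjusted p = 0.000420). The first difference goes with the labels. The second goes against them but did not reach an adjusted p of 0.05. For the third the labels name no induced RhoH in either group, so they do not predict the lower signal in uninduced RhoH. Whether the probe set reads the transcript of the construct was not tested. The gene of the construct was highest on the arrays labelled GFP, so higher and lower refer throughout to groups as their labels name them. Of 7 promyelocyte and azurophil granule markers 5 were measured, and MPO, which encodes myeloperoxidase, lay at percentile 99.8 or above of the tested genes on every array. The array medians ran from 5.43 to 5.55 on the log2 scale. The highest were those of replicate 1 of induced and of uninduced RhoH (5.55 each), and no other array was above 5.48. The SD over genes of an array's deviation from its group mean was 0.162 to 0.204 for induced RhoH, 0.130 to 0.206 for uninduced RhoH and 0.0904 to 0.0959 for GFP, so the GFP arrays were the most alike.

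In the classical pathway a kinase complex marks the IκB proteins for destruction, and dimers of NF-κB subunits enter the nucleus. NFKB1 and NFKB2 encode precursors that are cut to the DNA-binding subunits p50 and p52, and RELB encodes the usual partner of p52 in the non-canonical pathway. In myeloid cells the pathway drives cytokines such as TNF, the prostaglandin-forming enzyme cyclooxygenase-2 encoded by PTGS2, and IER3, an immediate early gene with a role in cell survival. NFKB2 and several inhibitor genes are themselves targets, which makes feedback a hallmark of the system.

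Promoter sequences are shown for PTGS2, the member that differed in most comparisons, for TNF, a member that varied widely within groups, and for NFKB2, a subunit gene with several κB-like matches. They are RefSeq windows of build GRCh38.p14 from 250 bases before to 50 bases after a transcription start, and 4 of the 6 measured members had at least 1 such window (not IER3 and RELB). Capitals mark a loose κB-like pattern on either strand, namely GGG, then any 5 bases, then CC. Matches can overlap, and 58.7% of all 35116 windows held at least 1.
PTGS2: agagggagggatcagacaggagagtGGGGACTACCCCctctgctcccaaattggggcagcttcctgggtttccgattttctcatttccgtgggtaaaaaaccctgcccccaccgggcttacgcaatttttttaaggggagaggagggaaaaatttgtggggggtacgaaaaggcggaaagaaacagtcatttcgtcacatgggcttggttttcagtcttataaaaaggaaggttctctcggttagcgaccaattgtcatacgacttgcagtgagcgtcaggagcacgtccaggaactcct
TNF: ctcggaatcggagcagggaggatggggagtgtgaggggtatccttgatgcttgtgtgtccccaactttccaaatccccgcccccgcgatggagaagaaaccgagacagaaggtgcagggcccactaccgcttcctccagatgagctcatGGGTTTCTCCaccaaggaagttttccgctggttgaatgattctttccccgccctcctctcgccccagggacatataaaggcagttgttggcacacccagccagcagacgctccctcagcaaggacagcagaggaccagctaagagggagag
NFKB2: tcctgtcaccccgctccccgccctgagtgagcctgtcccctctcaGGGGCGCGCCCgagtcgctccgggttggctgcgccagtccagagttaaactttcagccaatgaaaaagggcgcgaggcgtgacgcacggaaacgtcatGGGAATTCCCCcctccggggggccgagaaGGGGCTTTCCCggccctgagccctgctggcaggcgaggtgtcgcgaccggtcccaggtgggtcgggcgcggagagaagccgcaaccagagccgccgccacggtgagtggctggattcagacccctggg
The PTGS2 window is chr1:186680374-186680673 on the minus strand, the TNF window chr6:31575315-31575614 on the plus strand and the NFKB2 window chr10:102394328-102394627 on the plus strand. The NFKB2 window is 1 of 3 for that gene and was picked for its matches of the stricter κB consensus, 4 against 3 and 0 in the other windows. Of the loose pattern it held 9 matches at 6 positions, against 8 at 7 positions in the window with 3 consensus matches. That consensus was held by 11.3% of all windows on either strand. Of the 4 matches in the NFKB2 window, 3 overlapped at GGGAATTCCC, which begins 107 bases before the start and reads the same on both strands, and the other was GGGGCTTTCC, 78 bases before it. NFKB1 had 1 consensus match, GGGAATTTCC, 49 bases before 1 of its 2 starts. The consensus was not found in the PTGS2 and TNF windows, which says only that those letters are not in these 300 bases. Both of these windows held TATAAA, 32 bases before the start in PTGS2 and 29 in TNF, as did 11.5% of all windows on either strand.

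NFKB1, NFKB2 and RELB, the measured subunit genes among the 10, passed the test in no comparison. NFKB1 had log2 signals of 8.50, 8.81 and 9.13 in induced RhoH, 8.94, 9.14 and 9.12 in uninduced RhoH, and 8.83, 8.87 and 8.73 in GFP. The induced arrays spread from the lowest of the 9 to nearly the highest, and the uninduced arrays all lay above the GFP arrays. NFKB2 had 5.91, 6.20 and 6.36 in induced RhoH, 6.08, 6.08 and 6.29 in uninduced RhoH, and 6.43, 6.53 and 6.31 in GFP. The uninduced arrays all lay below the GFP arrays by a small margin. RELB had 6.89, 6.84 and 6.89 in induced RhoH, 6.74, 6.80 and 7.09 in uninduced RhoH, and 6.93, 6.59 and 6.83 in GFP, with the 3 groups overlapping throughout.

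The test was limma, fitted to all 9 arrays and adjusted over the 14778 genes, and passing, or being called, means an adjusted p below 0.05. With 4-OHT in RhoH cells the log2 fold change was -0.25 for NFKB1 (95% interval -0.57 to 0.07, adjusted p = 0.524), 0.01 for NFKB2 (-0.27 to 0.29) and -0.00 for RELB (-0.27 to 0.26). As folds, the interval ran from 0.827 to 1.22 for NFKB2 and from 0.831 to 1.20 for RELB. Induced RhoH minus GFP gave 0.00 for NFKB1, -0.27 for NFKB2 (-0.55 to 0.01, adjusted p = 0.336) and 0.09 for RELB. Uninduced RhoH minus GFP gave 0.25 for NFKB1 (-0.07 to 0.58, adjusted p = 0.314), -0.27 for NFKB2 (adjusted p = 0.207) and 0.09 for RELB. NFKB1 passed in the last comparison only where arrays were weighted by their quality (0.31, adjusted p = 0.0115).

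**Figure D1:**
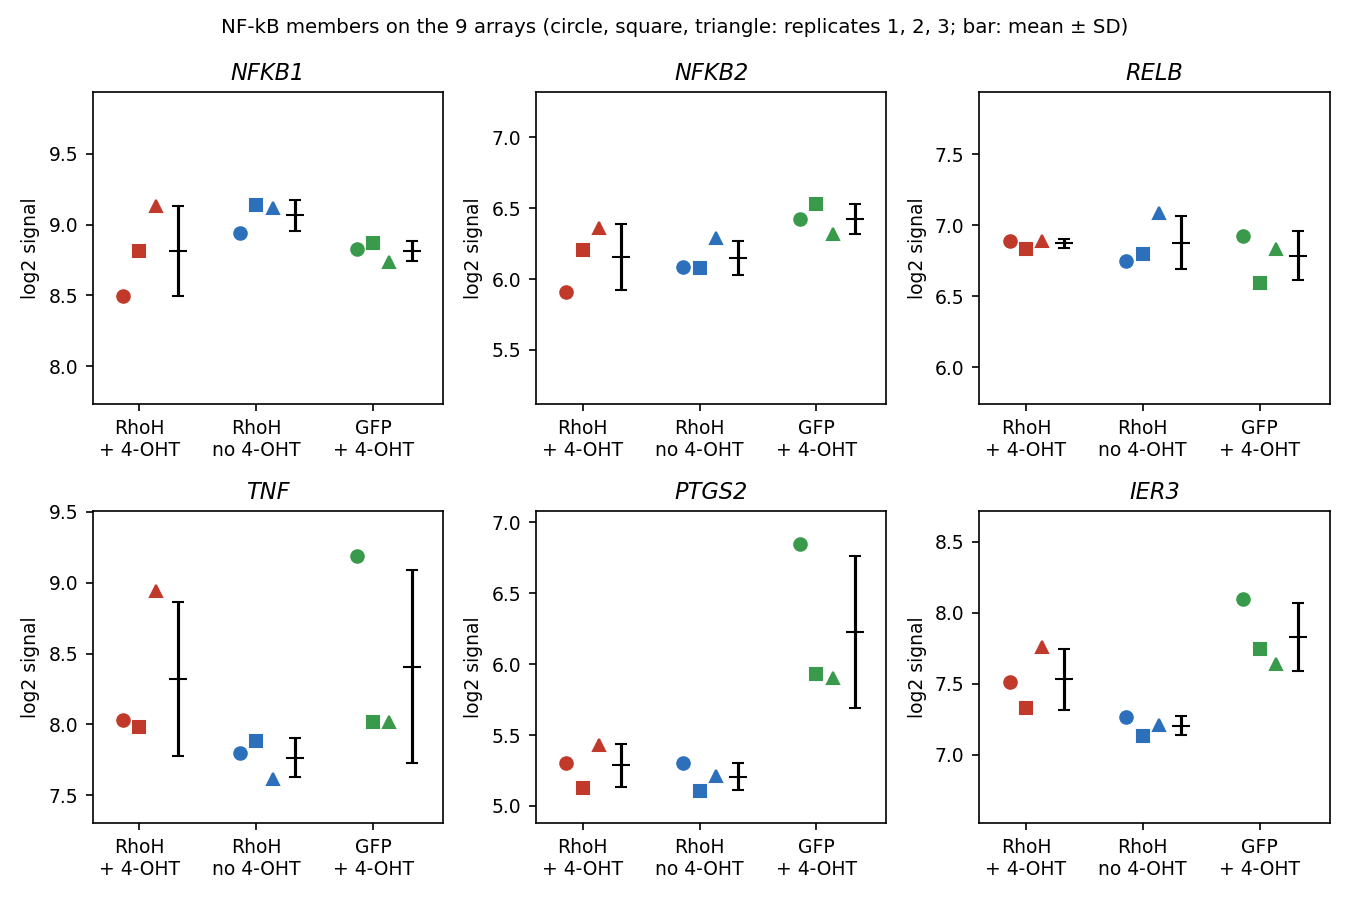
Log2 signal (vertical axis, 2.2 units in each panel) of the 6 measured members on each of the 9 arrays, by group from left to right, induced RhoH, uninduced RhoH and GFP. Points are arrays and bars are the mean ± SD of 3 arrays. PTGS2 is highest on all 3 GFP arrays, TNF, PTGS2 and IER3 are highest on GFP replicate 1, and the subunit genes overlap between most groups.

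PTGS2 was lower in RhoH cells than in GFP cells, with or without 4-OHT. Its log2 signals were 5.30, 5.13 and 5.43 in induced RhoH, 5.30, 5.11 and 5.21 in uninduced RhoH, and 6.85, 5.93 and 5.90 in GFP. Both RhoH groups lay wholly below the GFP group and overlapped each other. Induced RhoH averaged 5.29 ± 0.15 and GFP 6.23 ± 0.54 (SD, n = 3 each), a 1.92-fold lower signal in induced RhoH (log2 fold change -0.94, SE 0.22, adjusted p = 0.0417). Uninduced RhoH averaged 5.21 ± 0.10 against the same GFP arrays, 2.03-fold lower (-1.02, SE 0.22, adjusted p = 0.0106). Between induced and uninduced RhoH the difference was 0.08 (95% interval -0.41 to 0.57, adjusted p = 0.940).

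The 2 PTGS2 calls share the GFP arrays and were not equally firm. On GFP replicate 1 PTGS2 was 0.93 above the mean of the other 2 GFP arrays. Without that array the log2 fold change was -0.63 for induced RhoH minus GFP (adjusted p = 0.0313) and -0.71 for uninduced RhoH minus GFP (adjusted p = 0.00522). The call for induced RhoH was lost when any other of the 9 arrays was left out (adjusted p = 0.053 to 0.104), and that for uninduced RhoH was kept in all 19 alternatives run. PTGS2 lay between percentiles 24.9 and 30.0 of the tested genes on the RhoH arrays, and fold changes of signals that dim can be understated on arrays.

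IER3 was lower in uninduced RhoH than in GFP cells. Its log2 signals were 7.51, 7.33 and 7.76 in induced RhoH, 7.27, 7.13 and 7.21 in uninduced RhoH, and 8.10, 7.75 and 7.64 in GFP. The uninduced arrays were the 3 lowest of the 9, and the induced arrays lay above them and overlapped the GFP range only at induced RhoH replicate 3. Uninduced RhoH averaged 7.20 ± 0.07 and GFP 7.83 ± 0.24 (SD, n = 3 each), 1.54-fold lower in uninduced RhoH (-0.63, SE 0.14, adjusted p = 0.0127). Induced RhoH averaged 7.53 ± 0.22, which was 0.33 above uninduced RhoH (SE 0.14, adjusted p = 0.304) and 0.30 below GFP (log2 fold change -0.30, adjusted p = 0.338), and neither difference passed.

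The 11 probe sets named IER3 did not all move alike. They held 4 different patterns, since 5 of them carried the same 9 values as each other and another 4 did too. The probe set used and the other 5 sets of the brighter patterns gave log2 fold changes of -0.63, -0.75 and -0.54 for uninduced RhoH minus GFP, each passing when all 43550 probe sets were tested (adjusted p = 0.0323, 0.0293 and 0.0479). The 5 identical dim sets gave 0.01 (adjusted p = 0.989). With the mean of all 11 in place of the brightest, the IER3 difference was -0.38 and was not called (adjusted p = 0.0947).

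TNF varied widely within 2 of the 3 groups and passed no test. Its log2 signals were 8.03, 7.98 and 8.94 in induced RhoH, 7.80, 7.88 and 7.62 in uninduced RhoH, and 9.19, 8.02 and 8.02 in GFP. Induced RhoH replicate 3 and GFP replicate 1 stood about 1 log2 unit above their group fellows, and the uninduced arrays were the 3 lowest of all. Induced minus uninduced RhoH was 0.55 (95% interval -0.18 to 1.29, adjusted p = 0.546), induced RhoH minus GFP -0.09 (-0.83 to 0.65, adjusted p = 0.922) and uninduced RhoH minus GFP -0.64 (-1.38 to 0.10, adjusted p = 0.262). The first became 0.24 without induced RhoH replicate 3, the second 0.30 without GFP replicate 1, and the third -0.25 without GFP replicate 1. Of the 8 probe sets named TNF, 7 carried identical values, with -0.55 for uninduced RhoH minus GFP (adjusted p = 0.422 over all probe sets).

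The calls among the members are set here beside those among all genes. With 4-OHT in RhoH cells 0 of 6 measured members passed limma, and before adjustment 1 (IER3, higher) had p below 0.05. Of all genes 3.78% passed, 3.02% higher and 0.751% lower. The groups did not overlap for 2 members, TNF and IER3, both higher, against 14.5% of all genes (8.9% higher and 5.64% lower). In induced RhoH minus GFP, 1 of 6 was called, PTGS2, against 4.49% of all genes (1.74% higher and 2.75% lower), and it was the only member without overlap (22.5% of all genes, 11.1% higher and 11.4% lower). In uninduced RhoH minus GFP, 2 of 6 were called, PTGS2 and IER3, both lower, against 15.3% of all genes (6.01% higher and 9.27% lower). There 5 of 6 members did not overlap, 1 higher and 4 lower, against 37.3% of all genes (19.2% higher and 18.1% lower). The median log2 fold change of the 6 members was 0.04, -0.18 and -0.45 in the 3 comparisons in this order, and that of all genes -0.00, 0.03 and 0.05. The last 2 comparisons share the GFP arrays, and the first shares an RhoH group with each of them. Of all calls in the induction 80.1% were higher, and 61.7% after quantile normalization of the genes again.

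**Figure D2:**
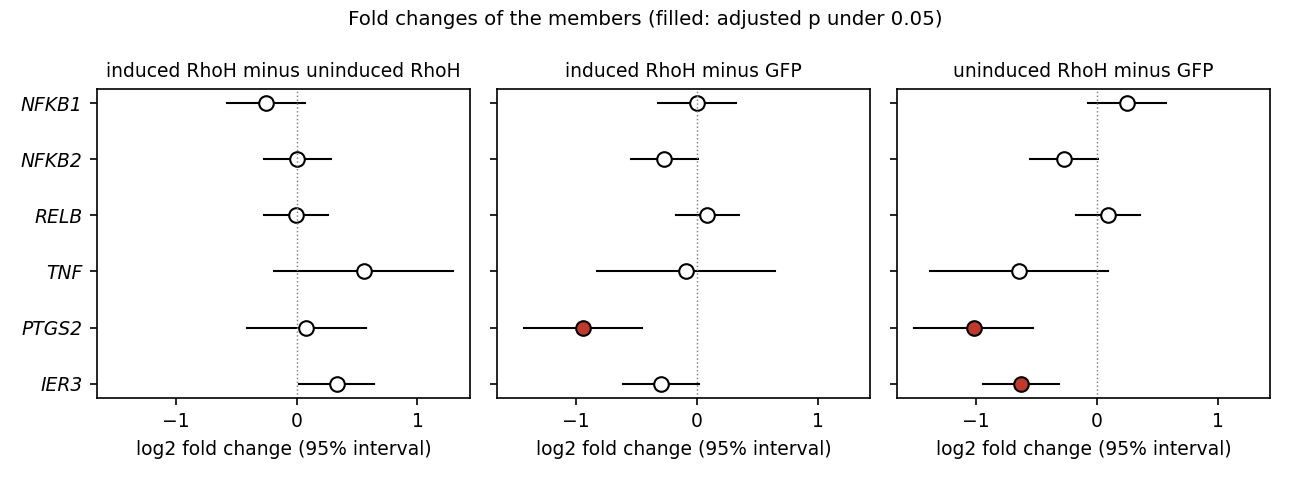
Log2 fold change (horizontal axis) of the 6 measured members in each comparison, with the 95% interval of the limma fit as a line. Filled points passed an adjusted p of 0.05: PTGS2 at -0.94 and -1.02 against GFP, and IER3 at -0.63 for uninduced RhoH minus GFP.

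The 3 target genes shared a high array. On GFP replicate 1 TNF was 1.17, PTGS2 0.93 and IER3 0.40 above the mean of the other 2 GFP arrays, which ranked 3, 6 and 135 of 14778 genes on that array. Only 0.392% of all genes were more than 0.5 above, a limit set after the data were seen. The chemokine gene CXCL8, another target, was 1.29 above and ranked 2. Of 67 other measured genes listed for the pathway, only 2 were more than 0.5 above on that array, CXCL8 and CCL4 (0.70). Other targets were not, such as CCL2 (0.21), IRF1 (0.02) and CXCL2 (-0.05). The subunit genes were closer to their group there, NFKB1 by 0.03, NFKB2 by 0.00 and RELB by 0.21. Groups of 3 arrays were not tested for outliers. On induced RhoH replicate 3, where 6.54% of all genes were more than 0.5 above the other 2 induced arrays, TNF was 0.94, IER3 0.34 and PTGS2 0.21 above.

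**Figure D3:**
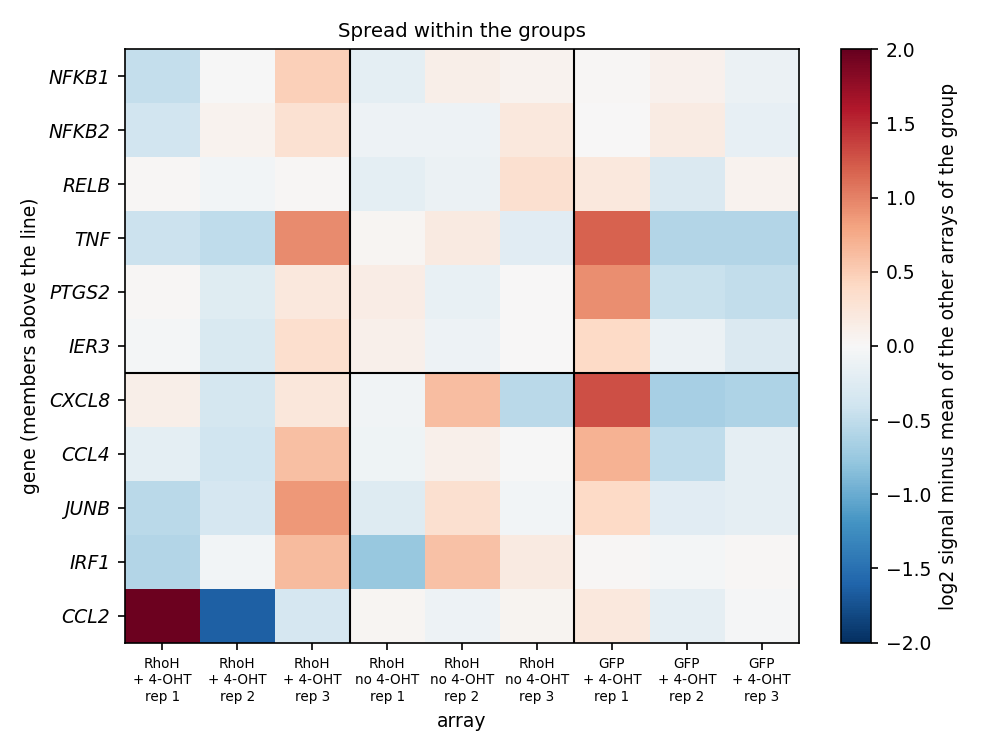
Difference (colour, log2 units, scale from -2 to 2) between an array and the mean of the other 2 arrays of its group, for the 6 measured members above the line and 5 other NF-κB target genes below it, with the arrays as columns from induced RhoH through uninduced RhoH to GFP. TNF, PTGS2 and CXCL8 are 0.93 to 1.29 higher on GFP replicate 1, and TNF is 0.94 higher on induced RhoH replicate 3.

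The genes most like the 2 most variable members were named by the root mean square difference of centred log2 signals over the 9 arrays. For PTGS2 they were LOC145474 (0.21), ETNK2 (0.24) and CRISPLD2 (0.26). For TNF they were ATP2B1-AS1 (0.18), RGS1 (0.20) and PMAIP1 (0.26).

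Other genes of the pathway were lower in RhoH than in GFP cells more often than higher. Of 107 further listed genes 67 were measured. In uninduced RhoH minus GFP, 34 were lower and 2 higher by the test, with a median of -0.30, against 9.27% lower and 6.01% higher among all genes with a median of 0.05. The lists were chosen with earlier results of these data known, so the counts describe and support nothing further. The NF-κB subunit genes outside the 10 belonged to the lower ones. REL, which encodes c-Rel, a subunit of blood cells, had log2 signals of 8.70, 9.0 and 8.94 in uninduced RhoH against 9.58, 9.60 and 9.59 in GFP (-0.71, adjusted p = 0.000996). RELA, which encodes p65, was at -0.39 (adjusted p = 0.0298) and BCL3, an IκB-like coactivator, at -0.47 (adjusted p = 0.0241). Of 9 kinases of the IκB kinase level and their TAB partners 6 were lower, namely the adaptor TAB2 (-1.03) and the kinases MAP3K8 (-0.88), MAP3K3 (-0.66), CHUK (-0.54), which is IκB kinase alpha, TBK1 (-0.41) and MAP3K7 (-0.28), which is the TAK1 kinase.

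Among 25 adaptors and ubiquitin enzymes, 12 were lower and 1 higher in uninduced RhoH than in GFP. CYLD, a deubiquitinase that restrains NF-κB, was at -1.50, the Toll-like receptor adaptor MYD88 at -1.38, and the ubiquitin ligase BIRC2 at -1.19. IRAK3 (-0.75), which restrains Toll-like receptor signalling, the TRAF-binding TANK (-0.74), N4BP1 (-0.62), BCL10 (-0.56), TRAF1 (-0.54), TNIP1 (-0.47), the ubiquitin ligase RNF31 (-0.44) and IRAK2 (-0.36) were also lower. TRAF3, which restrains the non-canonical pathway, was the higher gene (0.41). Of 7 receptor genes the receptor subunits IL18R1 (-1.42) and IL1RAP (-0.95) were lower and the other 5 did not pass (-0.13 to 0.10). Of 23 other target genes 11 were lower and 1, MYC, higher (1.61). The lower ones were the chemokine genes CCL2 (-5.87), CXCL8 (-1.95), CCL4 (-1.50) and CCL20 (-0.89), the transcription factor genes IRF1 (-2.23) and JUNB (-1.27), and the adhesion molecule genes ICAM1 (-0.95) and CD44 (-0.60). The survival genes BCL2L1 (-0.79) and BCL2A1 (-0.71) and the interferon receptor subunit gene IFNGR2 (-0.44) completed them. Restraining and activating members of the pathway were thus both among the lower genes. Of the 36 calls 13 were lost in at least 1 alternative, among them RELA and BCL3 when single arrays were left out (adjusted p up to 0.117 and 0.101). Without GFP replicate 1 the 34 lower and 2 higher genes became 23 and 1. Calls among all genes fell as well, from 2258 to 1556, and to 1450 or 1484 without GFP replicate 2 or 3.

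In induced RhoH minus GFP the same lists had 12 lower and 1 higher of 67, with a median of -0.13, against 2.75% lower and 1.74% higher among all genes with a median of 0.03. REL was at 8.76, 9.0 and 8.85 in induced RhoH against the GFP values above (-0.72, adjusted p = 0.00355), and RELA at -0.37 did not pass (adjusted p = 0.0934). CCL4 (-0.97), CYLD (-0.93), BIRC2 (-0.87), IL18R1 (-0.76), MYD88 (-0.71), TAB2 (-0.71), ICAM1 (-0.69), CD44 (-0.65), IL1RAP (-0.65), CHUK (-0.55) and IRAK3 (-0.52) were the other lower genes, and MYC was the higher one (0.76). Of these 13 calls 4 were lost in at least 1 alternative. With 4-OHT in RhoH cells 8 of 67 were higher and 2 lower, with a median of 0.14, against 3.02% higher and 0.751% lower among all genes with a median of -0.00. The calls among all genes were likewise mostly higher, 80.1% as given above. CCL2 (4.02), IRF1 (1.57), JUNB (1.16), MAP3K8 (0.67), MYD88 (0.67), IL18R1 (0.66), CYLD (0.58) and the interferon receptor subunit IFNGR2 (0.39) were higher, and MYC (-0.85) and TRAF3 (-0.43) lower. CCL2, a chemokine for monocytes, had log2 signals of 9.71, 7.32 and 8.18 in induced RhoH, 4.41, 4.32 and 4.42 in uninduced RhoH, and 10.40, 10.14 and 10.24 in GFP. Its groups did not overlap, and the induced arrays spread over more than 2 log2 units. Of these 10 calls 6 were lost in at least 1 alternative. No subunit gene was called in the induction, with REL at -0.01 and RELA at 0.03, nor was the coactivator gene BCL3 (0.33).

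**Figure D4:**
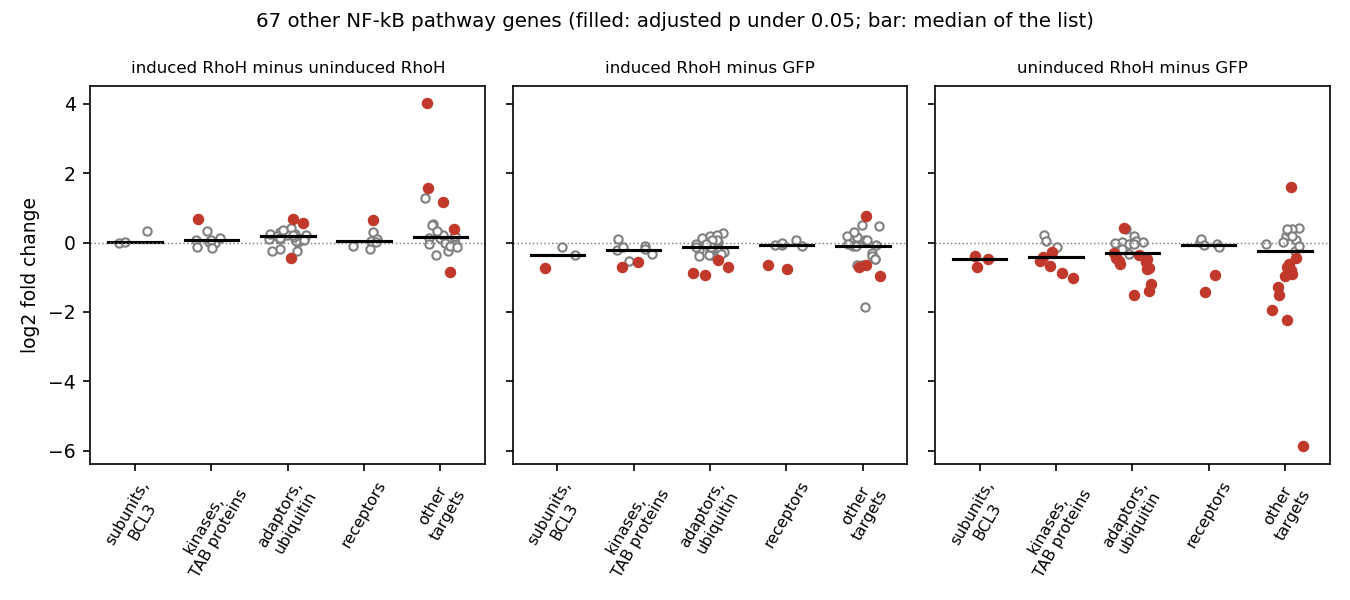
Log2 fold change (vertical axis) of 67 other NF-κB pathway genes by list, in the 3 comparisons. Each point is a gene, filled where the adjusted p was under 0.05, and the bar is the median of the list. Most filled points lie below 0 in uninduced RhoH minus GFP (34 of 36) and above 0 with 4-OHT in RhoH cells (8 of 10).

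Promyelocyte and eosinophil markers differed between the RhoH and GFP arrays. The monocyte sum, most of it from LYZ, did not separate the groups. Of 6 monocyte and macrophage markers 4 were measured, and the log2 of their summed signal was 12.79 to 12.86 in induced RhoH, 12.73 to 12.84 in uninduced RhoH and 12.76 to 12.85 in GFP. Signals were summed unlogged, and LYZ alone averaged 12.54, 12.65 and 12.43 in these groups. A dimmer marker such as CD14 could hardly move that sum. Within that list CD14 averaged 5.51 in induced RhoH, 5.39 in uninduced RhoH and 6.86 in GFP, and was lower in both RhoH groups than in GFP (-1.35 and -1.47, adjusted p = 0.00726 and 0.00126). CD68 averaged 10.13 in induced RhoH, 9.02 in uninduced RhoH and 10.43 in GFP. It was higher in induced than in uninduced RhoH (adjusted p = 0.000834) and lower in uninduced RhoH than in GFP (-1.41, adjusted p = 3.87e-05). These are the directions of most called pathway genes. CD68 did not pass in induced RhoH minus GFP (-0.30, adjusted p = 0.260). CSF1R and LYZ passed in no comparison, with 0.02 and 0.12 for induced RhoH minus GFP and -0.31 and 0.22 for uninduced RhoH minus GFP. On the same scale the 5 measured promyelocyte markers summed to 14.27 to 14.53 in induced RhoH, 14.68 to 14.70 in uninduced RhoH and 13.20 to 13.26 in GFP, higher in RhoH cells. The 2 measured eosinophil markers of 6, EPX and CLC, summed to 9.53 to 10.34 in induced RhoH, 9.97 to 10.68 in uninduced RhoH and 8.0 to 8.07 in GFP, also higher in RhoH cells. The measured markers of B lymphocytes (PAX5), of erythroid cells and megakaryocytes (PF4) and of fibroblasts and epithelium (EPCAM and KRT18) passed in no comparison, and of the T lymphocyte markers CD2 and CD4 only CD4 did, in uninduced RhoH minus GFP (-0.61, adjusted p = 0.00571). The part of the markers in the results for PTGS2, IER3 and the pathway lists was not tested. In RNA of whole cultures, fewer cells of a kind and less RNA per cell cannot be told apart.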

How the data were processed

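Total RNA of 9 cultures was hybridised to Affymetrix whole-transcript arrays, 3 per group. The deposited table held log2 signals of 43550 probe sets, from 1.78 to 13.87. The submitters' processing notes name Affymetrix Power Tools, RMA and limma without versions or roles, so that the values are RMA summaries is inferred from these names and the range. GEO's platform annotation named 1 gene for 15659 probe sets and none for 27891, which were left out of the tests by gene. A gene with several probe sets (521 genes) was read from its brightest on average, which leaves 14778 genes.

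The 3 groups were fitted together in limma 3.58.1 (R 4.3.3) with no covariates, and p-values were adjusted by Benjamini-Hochberg over all genes within each comparison. The threshold was an adjusted p of 0.05. The procedure was tested on simulated data. These had independent noise with the same SD for a gene in every group. Unequal spread between groups and arrays that deviate together were therefore not covered. An exact permutation test of 3 arrays against 3 cannot go below p = 0.1. Precision is limited by having 3 arrays a group. The design text calls the arrays of a group biological replicates.

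The members, the gene lists and the alternatives were chosen with earlier results of these data known. The text names all measured members, the genes of 5 further lists that were called (at most 12 a list in each comparison, by adjusted p, so that RBCK1 is left to the count), the 3 genes most like each of the 2 most variable members, and RHOH. The uncalled values of REL, RELA and BCL3, and the markers were named outside that rule, after their values were seen. Promoter windows are from RefSeq (GRCh38.p14). Alternatives covered normalization, filters, probe set choice, weights, the replicate block and leaving out arrays.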

Additional observations from a re-analysis of the deposited data

How the results depend on the processing

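PTGS2 in uninduced RhoH minus GFP kept its direction and its call in all 19 alternatives (-1.18 to -0.71). IER3 in the same comparison lost its call only with the mean of its probe sets (-0.38), which left 1 member called. Its call was kept narrowly without GFP replicate 1 (-0.49, adjusted p = 0.0497) and without uninduced RhoH replicate 2 (-0.59, adjusted p = 0.0488). In induced RhoH minus GFP 0 members were called with all probe sets tested, array weights, only the 6 arrays compared, or both RhoH replicate 1 arrays left out, and 0 to 1 when 1 array was left out. Genes called in induced minus uninduced RhoH numbered 953 after quantile normalization, 950 with array weights, 190 with only the 6 arrays compared and 304 to 666 when 1 array was left out, against 558. In induced RhoH minus GFP they numbered 1176 with array weights and 279 to 861 when 1 array was left out, against 664. In uninduced RhoH minus GFP they numbered 4326 and 1450 to 2670, against 2258.

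Differences near 0, none of them called, changed sign. For induced minus uninduced RhoH, NFKB2 was -0.0241 after quantile normalization, -0.0154 with centred arrays, -0.0358 with array weights and -0.10 to 0.13 when 1 array was left out, and RELB was -0.0715 to 0.10. For induced RhoH minus GFP, NFKB1 was -0.017 with centred arrays and -0.16 to 0.16 when 1 array was left out, RELB -0.0076 to 0.16, and TNF -0.40 to 0.30 and 0.055 without both RhoH replicate 1 arrays. RELB was -0.0119 to 0.17 for uninduced RhoH minus GFP. The cause was not tested.

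Replicate numbers are shared between groups, but no label says what a number marks. Same-numbered arrays deviated together with correlations of -0.03 to 0.54, and they were not treated as pairs. Between the RhoH groups these were 0.54, 0.37 and 0.07 for replicates 1, 2 and 3. There replicate 1 against other numbers gave -0.50 to -0.14. Deviations were taken from the group mean and sum to 0 within a group. A positive value for replicate 1 with itself therefore forces negative ones elsewhere, and these add nothing to the 0.54. Induced RhoH replicate 2 correlated better with uninduced RhoH replicate 3 (0.40) than with its own number (0.37). With the replicate block 684, 820 and 2558 genes were called in the 3 comparisons, and 0, 1 and 2 members.

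The counts of pathway list genes without GFP replicate 1 or without both RhoH replicate 1 arrays were added after seeing the data. They were 8, 10 and 24 without GFP replicate 1 and 8, 15 and 30 without both RhoH replicate 1 arrays, against 10, 13 and 36. Among all genes the calls were 371, 302 and 1556, then 557, 990 and 2590, against 558, 664 and 2258. With 3 arrays a group, 1 array can decide a call, as for PTGS2 in induced RhoH. PTGS2 was dim on the RhoH arrays. The gene annotation leaves 4 of the 10 listed genes without a value.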

Other observations

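The genes that stood highest on GFP replicate 1 over the mean of the other 2 GFP arrays were led by an immediate early gene. EGR1, which encodes a transcription factor induced within minutes of many stimuli, was 1.77 log2 units higher and ranked 1 of 14778. CXCL8, TNF and PTGS2 ranked 2, 3 and 6. FOS and FOSB, which encode subunits of the AP-1 transcription factor, were 0.84 and 0.80 higher and ranked 9 and 10, and MIR21, the gene of a microRNA, was 0.95 higher and ranked 5. OTOL1, MSX2P1, SCARNA11, MIR548AA1 and MIR4718, which are not in the NF-κB lists, held ranks 4, 7, 8, 11 and 12 (0.99 to 0.78). On induced RhoH replicate 3, measured against the other 2 induced arrays, FOS was 1.37 higher and ranked 4, and MIR21 was 0.81 higher and ranked 93. EGR1 (0.46) and FOSB (0.31) ranked only 1258 and 2875 there. On that array 6.54% of all genes were more than 0.5 above. These genes were chosen after their values were seen, and their part in the PTGS2, TNF and IER3 results was not tested.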
